A study of Mus musculus with 4 samples.

Results

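The 47 genes described here encode the proteins that license and fire replication origins and that copy DNA at the fork. They were listed by name, with earlier results of these data known, out of 18193 genes measured. They were sorted by role into origin recognition and licensing (9 genes), origin firing and CMG assembly (8), polymerase and primase (11), clamp and clamp loaders (8), single-strand binding (3), Okazaki fragment and RNA primer processing (4) and fork protection (4). The MCM genes, which encode the helicase core, were not part of the set. Each gene was represented by 1 probe set, the one with the highest mean log2 signal over the 4 arrays among the probe sets that carry a single gene symbol. All 47 genes had such a probe set, and all 47 lay above the level filter of the statistical test. That filter was on the mean log2 signal of all 4 arrays. Pole, Chtf18, Cdc6 and Pola2 reached it only through their untreated arrays, since the mean of their treated arrays lay under it. This limits their limma results.

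Doxycycline-treated and untreated cells of 2 mouse mammary tumor lines, 8534 and 8542, were compared. Both lines were derived from primary mammary tumors of female MMTV-tTA/TOP-ICN1 mice of mixed FVB/N;B6 background, in which the tetracycline transactivator, driven by the mouse mammary tumor virus promoter, turns on human ICN1 (the active intracellular domain of NOTCH1) from a tet operator. The treated cells received 2 µg/ml doxycycline for 24 hours, which shuts the transgene off, and the untreated cells kept it on. Total RNA of each line and condition was hybridized to 1 array, so the cell line was the replicate (n = 2 lines) and their number limits the precision of every value. No array held cells without the transgene given doxycycline, so loss of ICN1 and any other effect of the drug cannot be told apart.

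Replication begins when the origin recognition complex marks an origin and, with Cdc6 and Cdt1, loads the MCM helicase in a step called licensing. In S phase the Cdc7-Dbf4 kinase and the loading factors fire the origin by adding Cdc45 and GINS to MCM, which gives the CMG helicase. Polymerase alpha-primase then primes both strands, polymerase epsilon extends the leading strand, polymerase delta extends the lagging strand on the PCNA clamp, and the Timeless-Tipin-Claspin complex keeps the fork stable. Transcripts of many of these genes are known to be higher in cycling cells than in resting cells.

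The values were MAS5 signals, given here in signal units, and changes are log2 values with doxycycline minus untreated within a line. On 20% of all measurements the signal lay under 5.52 units, and fold changes that rest on such a signal are given as a lower limit, computed with the low signal raised to 5.52 units. The luminal epithelial genes Krt8, Krt18, Epcam, Cdh1, Cldn3 and Cldn7 had signals between 1247 and 8044 units on the 4 arrays. Of the 9 epithelial markers 4 (Krt8, Krt18, Cldn3 and Cldn7) were higher by limma and Krt19 was lower, at 1431 and 2680 units with doxycycline against 2522 and 5083 units untreated (limma adjusted p = 0.00302). Of those not called, Krt14 had 869 and 10.0 units with doxycycline and 1379 and 15.9 units untreated, and Krt5 lay between 15.3 and 52.9 units. The summed epithelial signal was 28540 and 21510 units with doxycycline, against 23720 and 19640 units untreated. Of 7 measured leukocyte markers, Ptprc lay between 6.08 and 7.20 units and Cd14 between 188 and 432 units. Their summed signal was 695 and 628 units with doxycycline, against 455 and 442 units untreated. Cd14 was higher by limma, Ptprc and Itgam lay under the level filter and were not tested, and the others were not called. The 7 fibroblast markers, none of them called, summed to 1103 and 164 units with doxycycline and 848 and 163 units untreated. They thus differed mainly between the lines. The 5 endothelial markers summed to 109 and 137 units with doxycycline and 248 and 128 units untreated. Among these Tek was lower by limma, and Kdr lay between 68.1 and 105 units. Vwf (0.47 to 2.29 units) and Pecam1 lay under the level filter and were not tested. Of 6 NOTCH target genes, 5 were lower by limma in the treated cells, among them Nrarp at 219 and 143 units with doxycycline against 4730 and 4511 units untreated, and Hes1 did not pass (limma adjusted p = 0.0579). The 4 proliferation markers measured (Mki67, Top2a, Cdk1 and Ccna2) were all lower by limma, and their summed signal was 705 and 255 units with doxycycline against 4585 and 4282 units untreated. The part of a changed share of cycling cells in the results below was not tested, and in bulk RNA fewer cells of a type and less RNA per cell cannot be told apart.

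Most of the replication genes were lower after doxycycline, in both lines, and no member was higher by either route. By the study's own criterion, a change beyond 2-fold in each line, 34 of 47 members (72.3%) were lower, where 4.42% of all genes were, and 0 were higher, where 3.09% of all genes were. More than 4-fold in both lines was reached by 20 members (1.45% of all genes). Any decrease in both lines was seen in 45 members (31.9% of all genes), the exceptions being Orc4 and Ticrr. In 44 members both treated arrays lay below both untreated arrays (21.8% of all genes), and in Orc3, Orc4 and Ticrr the conditions overlapped. The median change was -1.69 in line 8534 and -1.81 in line 8542, or 3.23-fold and 3.50-fold lower, beside a median of 0.02 for the mean change over all genes.

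In limma, with the cell line as a block and p values adjusted over all probe sets tested, 39 members were lower at an adjusted p under 0.05, where 6.95% of the genes tested were, and 0 were higher, where 4.76% were. The members that did not pass were Orc1, Orc2, Orc3, Orc4, Gins3, Gins4, Ticrr and Dscc1. Both routes were passed by 33 members. Dscc1 alone passed the fold rule without limma, and Orc5, Pole3, Pole4, Rfc1, Rnaseh2a and Rnaseh2b passed limma without reaching 2-fold in both lines. The limma calls rest on 1 residual degree of freedom: without an intensity trend in the variance 0 members were called, although 40 had an unadjusted p under 0.05, and without the block 10 were called (Gmnn, Cdc7, Gins1, Gins2, Pola2, Prim1, Pole, Rpa2, Tipin and Clspn), with 42 at an unadjusted p under 0.05.

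**Figure D1:**
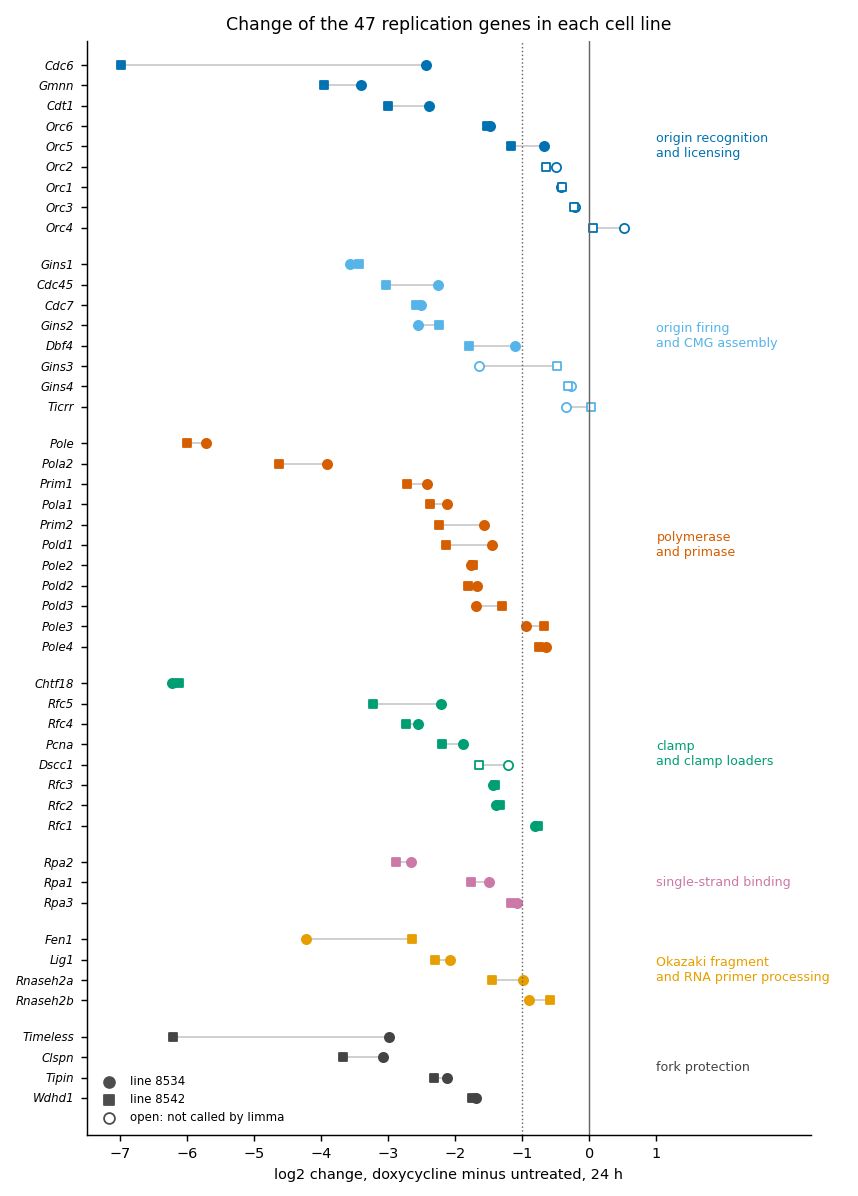
Log2 change (doxycycline minus untreated at 24 hours; horizontal axis) of each of the 47 genes (vertical axis, sorted within functional groups), with a circle for line 8534, a square for line 8542 and open symbols for the 8 genes not called by limma. The dotted line marks a 2-fold decrease, which 34 genes passed in both lines, changes are as measured (treated signals of Pole, Chtf18, Pola2, Cdc6 and Timeless lie under 5.52 units), and the subunits Orc1 to Orc4, Gins4 and Ticrr lie closest to 0.

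Within the licensing group the 6 subunits of the origin recognition complex and the factors that load MCM or restrain its loading had changes of different size, which were not tested against each other. Cdc6, Cdt1 and Gmnn had a median mean change of -3.69, and the 6 ORC genes one of -0.50. Gmnn encodes geminin, the inhibitor of Cdt1, and its signal was 137 and 76.2 units with doxycycline in lines 8534 and 8542, against 1454 and 1188 units untreated. The treated arrays lay far below the untreated ones in both lines. On the log2 scale it changed by -3.69 ± 0.39 on average (here and in what follows, mean ± SD of the lines, n = 2), and its limma adjusted p of 0.000154 was the lowest of the 47 genes. Cdt1, which brings MCM to the origin, fell to 165 and 101 units in treated cells, against 868 and 811 units in untreated cells (5.27-fold and 8.04-fold; limma adjusted p = 0.00045).

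Cdc6, the ATPase that joins ORC to load MCM, showed the widest gap between the lines of any member. Its signal was 21.0 and 1.55 units with doxycycline and 114 and 197 units untreated. Both treated arrays were low, but the value of 1.55 units lay under 5.52 units. Cdc6 was thus 5.44-fold lower in line 8534, and the decrease in line 8542 was at least 35.6-fold. Its mean log2 change as measured was -4.71 (limma adjusted p = 0.0203) with an SD of 3.21 between the lines, and -3.80 with the low signal raised to 5.52 units. The call was lost when dim probe sets were not filtered out.

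Among the ORC subunits only Orc6 passed the fold rule, at 111 and 104 units with doxycycline against 310 and 301 units untreated. Orc6 was 2.81-fold and 2.89-fold lower, nearly the same in both lines (mean log2 change -1.51 ± 0.03, limma adjusted p = 0.00193). Orc5 had signals of 72.6 and 57.4 units in treated cells and 117 and 129 units in untreated cells, which was 1.61-fold and 2.24-fold lower (limma adjusted p = 0.0402). This call did not hold after quantile normalization (limma adjusted p = 0.0562) or without the filter on dim probe sets. Orc1, the largest subunit of the complex, had 107 and 122 units with doxycycline and 143 and 163 units untreated (limma adjusted p = 0.205), a difference of -0.42 in each line. A dimmer probe set of Orc1, described further on with the other probe sets, was lower by limma. Orc2 had 109 and 121 units with doxycycline and 154 and 191 units untreated (limma adjusted p = 0.0890). The treated arrays of Orc1 and Orc2 lay below the untreated arrays, without passing the test.

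Orc3 and Orc4 lay closest to 0 within the complex. Orc3 had 143 and 118 units with doxycycline against 167 and 139 units untreated, a mean log2 change of -0.23 (limma adjusted p = 0.501). Orc4 had 223 and 150 units with doxycycline against 156 and 144 units untreated, and its mean log2 change of 0.29 ± 0.32 (limma adjusted p = 0.415) was the highest of the 47 genes and the only positive one. Over Orc2 to Orc5 the median mean change was -0.40, and 0 of these 4 subunits passed the fold rule. For the whole licensing group of 9 genes the median was -0.92, with 4 genes past the fold rule and 5 called lower by limma.

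**Figure D2:**
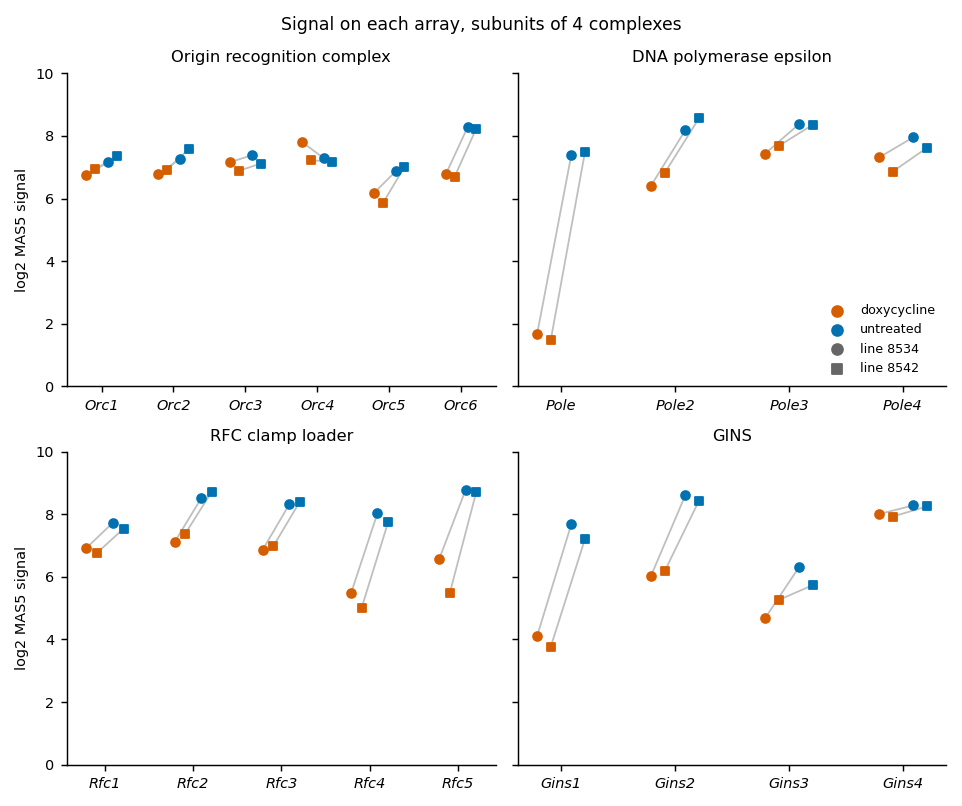
Log2 MAS5 signal (vertical axis) on each array for the subunits of ORC, DNA polymerase epsilon, the RFC clamp loader and GINS, with doxycycline to the left of untreated for each gene and a line joining the arrays of 1 cell line (circles, 8534; squares, 8542). Pole, Gins1, Gins2, Rfc4 and Rfc5 show the widest gaps between conditions, and Orc6 shows the widest within ORC. Gaps are narrow in Orc3, Orc4 and Gins4. Both treated signals of Pole lie under 5.52 units.

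Of the 8 firing and CMG genes, 5 were lower by more than 2-fold in both lines and the same number by limma, with a median mean change of -1.93. Cdc7, the catalytic subunit of the kinase that triggers origin firing, had 27.0 and 24.2 units with doxycycline and 154 and 145 units untreated (5.70-fold and 6.01-fold lower). Its activating subunit Dbf4 was 2.16-fold and 3.48-fold lower, at 149 and 86.4 units in treated cells against 322 and 301 units in untreated cells. Both subunits of the kinase passed limma (adjusted p = 0.00117 for Cdc7 and 0.00562 for Dbf4). Cdc45, which joins MCM and GINS in the helicase, had 39.7 and 21.0 units with doxycycline and 189 and 173 units untreated, 4.76-fold and 8.23-fold lower.

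The 4 GINS subunits, which form 1 complex in the CMG helicase, had changes of different size, also not tested against each other. Gins1 had the largest decrease of the firing group, with 17.3 and 13.7 units after doxycycline against 205 and 148 units untreated (mean log2 change -3.50 ± 0.10; limma adjusted p = 0.000522). Gins2 fell to 65.7 and 72.9 units in treated cells, against 389 and 345 units in untreated cells, 5.92-fold and 4.73-fold lower. Gins3 and Gins4 did not pass the test. Gins3 had 25.6 and 38.3 units with doxycycline and 79.9 and 53.4 units untreated, or 3.12-fold lower in line 8534 against 1.39-fold lower in line 8542 (limma adjusted p = 0.109). Gins4 had 257 and 243 units with doxycycline and 311 and 304 units untreated, a mean log2 change of -0.30 ± 0.04 that missed the threshold (limma adjusted p = 0.270).

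Ticrr encodes treslin, which helps load Cdc45. On the probe set used, its signal was 35.5 and 29.3 units with doxycycline and 45.4 and 28.7 units untreated, so the conditions overlapped. The changes were -0.36 in line 8534 and 0.030 in line 8542 (limma adjusted p = 0.819). Other probe sets of this gene gave other values, which are described further on.

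All 11 polymerase and primase genes were lower by limma, and 9 of them by more than 2-fold in both lines, with a median mean change of -1.80. Pole, the catalytic subunit of the leading-strand polymerase, had 3.20 and 2.81 units with doxycycline against 168 and 180 units untreated. Both treated signals lay under 5.52 units, which makes the decrease at least 30.4-fold in line 8534 and at least 32.5-fold in line 8542 (measured mean log2 change -5.86 ± 0.20; limma adjusted p = 0.00044). The other epsilon subunits stayed well above 5.52 units on all arrays. Pole2, the B subunit, had 85.3 and 113 units with doxycycline against 290 and 378 units untreated (3.40-fold and 3.35-fold lower). Pole3, a histone-fold subunit, had 173 and 205 units in treated cells and 334 and 328 units in untreated cells (1.93-fold and 1.60-fold lower; limma adjusted p = 0.0184). A dimmer probe set of Pole3, described further on, showed no decrease. Pole4, its histone-fold partner, had 159 and 116 units with doxycycline and 248 and 197 units untreated, and its mean log2 change of -0.70 ± 0.08 (limma adjusted p = 0.0379) was the smallest of the polymerase group. The call of Pole4 was lost after quantile normalization (limma adjusted p = 0.0591) and without the filter on dim probe sets.

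The 4 genes of polymerase alpha-primase, which makes the RNA-DNA primers, were all lower by more than 2-fold, with a median mean change of -2.41. Pola2, its regulatory subunit, had 8.82 and 4.80 units with doxycycline against 133 and 118 units untreated. The decrease was 15.1-fold in line 8534 and at least 21.4-fold in line 8542 (limma adjusted p = 0.000959). The catalytic subunit Pola1 was 4.35-fold and 5.21-fold lower, at 36.3 and 22.7 units in treated cells against 158 and 118 units in untreated cells. Prim1, the catalytic primase, had 125 and 93.0 units with doxycycline against 670 and 616 units untreated, and its limma adjusted p was 0.000307. The primase large subunit Prim2 was 2.96-fold and 4.75-fold lower.

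The 3 polymerase delta genes of the set were lower by both routes. The catalytic subunit Pold1 and accessory subunits Pold2 and Pold3 had mean log2 changes of -1.80, -1.74 and -1.50. The remaining delta subunit, Pold4, is not a member, and limma did not call it (mean log2 change 0.083). Pold1 had 138 and 95.5 units in treated cells against 380 and 420 units in untreated cells. Pold2 had 149 and 112 units with doxycycline and 476 and 393 units untreated. In both genes every treated array lay below every untreated array.

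Of the clamp and clamp loader genes 7 of 8 were lower under the fold rule and 7 by limma, with a median mean change of -1.74. Pcna, the sliding clamp that holds polymerase delta on DNA, had the highest signals of the 47 genes, 996 and 646 units with doxycycline against 3689 and 2969 units untreated. It was 3.71-fold and 4.60-fold lower (mean log2 change -2.04 ± 0.22; limma adjusted p = 0.000296). RFC opens the clamp and loads it on primed DNA. Its small subunits Rfc4 and Rfc5 had mean log2 changes of -2.65 and -2.72, and Rfc2 and Rfc3 changes of -1.36 and -1.43. The large subunit Rfc1 had 121 and 109 units with doxycycline and 212 and 186 units untreated, and its mean log2 change of -0.79 ± 0.02 (limma adjusted p = 0.0277) was the smallest of the group.

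Chtf18 and Dscc1 belong to an alternative loader that shares Rfc2 to Rfc5 and is known for its part in sister chromatid cohesion. Chtf18 had 1.43 and 0.97 units with doxycycline against 107 and 67.5 units untreated. Both treated values lay under 5.52 units, so the decrease was at least 19.3-fold in line 8534 and at least 12.2-fold in line 8542. The mean log2 change was -6.17 ± 0.07 as measured (limma adjusted p = 0.00253) and -3.94 with the low signals raised to 5.52 units. Changes that rest on such signals have no order among them. Dscc1 had 11.8 and 10.7 units with doxycycline and 27.6 and 33.4 units untreated. The treated arrays were lower by 2.33-fold and 3.13-fold, and the test was not passed on this probe set (limma adjusted p = 0.101). It was passed on another probe set of Dscc1, described further on, which reached the level filter only through its untreated arrays.

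The 3 genes of RPA, which coats single-stranded DNA, were all lower by both routes. Rpa2, the middle subunit, had 39.5 and 29.4 units with doxycycline against 249 and 216 units untreated, a mean log2 change of -2.77 ± 0.16 (limma adjusted p = 0.000568). Rpa1, the large DNA-binding subunit, was 2.81-fold and 3.39-fold lower, with 406 and 367 units in treated cells against 1143 and 1244 units in untreated cells. Rpa3, the small subunit, had 397 and 383 units with doxycycline and 838 and 861 units untreated, a mean log2 change of -1.12 ± 0.07 (limma adjusted p = 0.00228).

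All 4 genes of Okazaki fragment and RNA primer processing were lower by limma. Fen1, the nuclease that cuts displaced flaps, had 34.0 and 90.7 units with doxycycline and 638 and 567 units untreated, or 18.7-fold lower in 8534 cells against 6.25-fold in 8542 cells (limma adjusted p = 0.0016). Its probe set carries the suffix that marks possible cross-hybridization, and the other Fen1 probe set was 4.61-fold and 7.35-fold lower. Lig1, which seals the fragments, had 120 and 84.0 units in treated cells against 510 and 414 units in untreated cells, a mean log2 change of -2.19 ± 0.15 (limma adjusted p = 0.000539). Rnaseh2a, the catalytic subunit of the enzyme that removes ribonucleotides from DNA, had 163 and 107 units with doxycycline against 325 and 292 units untreated, and at 1.99-fold in line 8534 it stopped just short of the fold rule. Rnaseh2b, an accessory subunit, had 159 and 200 units with doxycycline and 297 and 301 units untreated, a mean log2 change of -0.75 ± 0.22 (limma adjusted p = 0.0299).

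The 4 fork protection genes were lower by both routes and had the lowest median mean change of the 7 groups, -2.80. On the probe set used, Timeless had 33.6 and 3.56 units with doxycycline against 266 and 263 units untreated. The decrease was 7.92-fold in line 8534 and at least 47.7-fold in line 8542 (measured mean log2 change -4.60 ± 2.28; limma adjusted p = 0.00602). On this probe set the untreated lines thus had like signals and the treated ones did not. The treated lines were alike on the other probe set of Timeless, described further on, where the decrease was 5.74-fold and 5.30-fold. Tipin, its binding partner, was 4.36-fold and 4.99-fold lower, at 122 and 99.7 units in treated cells against 531 and 498 units in untreated cells. Clspn encodes claspin, which couples the fork to checkpoint signaling, and it had 27.8 and 16.6 units with doxycycline against 235 and 213 units untreated (limma adjusted p = 0.000561). Wdhd1, which ties polymerase alpha to the helicase, had 47.4 and 53.8 units with doxycycline and 153 and 181 units untreated, a mean log2 change of -1.72 ± 0.04 (limma adjusted p = 0.00253).

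The groups overlapped widely. With signals under 5.52 units raised to that level, mean changes lay between -4.28 and -1.72 in the fork protection group, between -3.94 and -0.79 for the clamp and its loaders, between -4.97 and -0.70 for polymerase and primase, and between -3.80 and 0.29 for licensing. No test was run between groups, and the medians describe these members only. The share past the fold rule was 44.4% in licensing, 62.5% in firing, 81.8% in polymerase and primase, 87.5% in the clamp group, 2 of 4 genes in Okazaki fragment processing, and 100% in single-strand binding and fork protection.

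In the comparison of the lines, 32 of the 45 members lower in both lines had the larger decrease in line 8542 and 13 in line 8534. Whatever its sign, the change was the lower one in line 8542 for 33 of 47 members and for 9130 of 18193 genes. The untreated lines differed by a median of 0.17 on the log2 scale across members, and the treated lines by a median of 0.41. The treated signal was the lower one in line 8542 for 35 members, and so was the untreated signal for 31. These medians and counts of signals were taken over the members only, with no share over all genes beside them. Cdc6, Timeless, Fen1, Gins3 and Rfc5, 5 of the 47 members, differed between lines by more than 1 on the log2 scale. So did 4100 of 18193 genes, and 2269 of the 15070 genes tested. With any treated signal below 5.52 units set to 5.52, Cdc6 had changes of -2.44 in line 8534 and -5.16 in line 8542, and Timeless of -2.99 and -5.58, the values of line 8542 being limits. Rfc5 had changes of -2.21 and -3.22, while Fen1, at -4.23 and -2.64, and Gins3, at -1.64 and -0.48, had the larger decrease in line 8534. On the other probe set of Fen1 the direction turned, at -2.21 in 8534 cells and -2.88 in 8542 cells. The lines also differed by less than 1 on the other probe sets of Timeless (-2.52 and -2.41) and Gins3 (-1.24 and -0.81), and Cdc6 and Rfc5 had no other probe set. Across the 47 genes the changes in the lines gave r = 0.86 (Pearson) and rho = 0.92 (Spearman) with low signals so raised, a description only, since the genes share the same 4 arrays. With 1 array per line and condition, the difference between lines could not be tested.

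**Figure D3:**
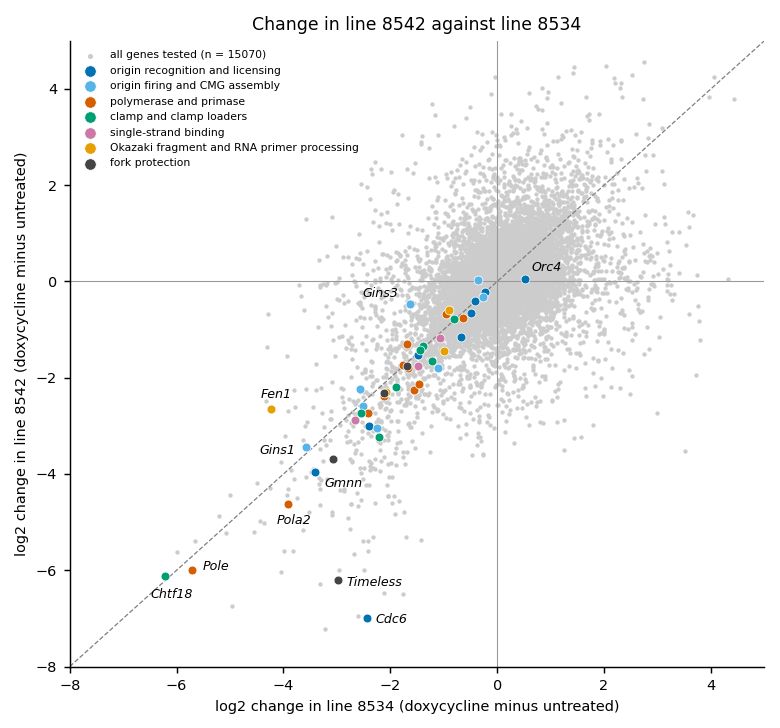
Log2 change (doxycycline minus untreated) in line 8542 (vertical axis) against line 8534 (horizontal axis) for the 15070 genes tested (grey) and the 47 replication genes (coloured by group), with the dashed line marking equal change. Changes are plotted as measured, so the points of Cdc6, Timeless, Pole, Chtf18 and Pola2 rest on signals under 5.52 units. Most replication genes lie at the lower left near the dashed line, Cdc6 and Timeless lie well below it, and Fen1 and Gins3 above it.

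The choice of probe set mattered for some genes. The 47 genes had 91 probe sets, 16 genes having 1 and 31 genes several, and of the 44 probe sets not used 37 lay above the level filter. Of those 37, 28 were lower in both lines (19 by more than 2-fold), 3 were higher in both lines, and 6 moved in opposite directions. For Ticrr, Dscc1 and Orc1, which limma did not call, another probe set gave a larger decrease. Ticrr had 8.73 and 8.62 units with doxycycline against 104 and 108 units untreated on probe set 1435497_at (mean log2 change -3.62; limma adjusted p = 0.00115), where the probe set used, 1429860_at, gave -0.16. Dscc1 had 8.48 and 0.65 units with doxycycline against 143 and 135 units untreated on 1452912_at, the lower treated value being under 5.52 units (limma adjusted p = 0.0055). The mean of its treated arrays lay under the level filter, which limits that limma result. Orc1 had 27.3 and 18.0 units with doxycycline against 87.2 and 57.4 units untreated on 1422663_at, 3.19-fold lower in both lines (limma adjusted p = 0.0109).

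For other genes a dimmer probe set gave a smaller change. Cdc7 had a mean log2 change of -0.50 on 1426021_a_at, against -2.55 on the probe set used. Cdc45 (1457838_at, 4.03 to 20.9 units), Pola2 (1425794_at, 5.68 to 16.2 units), Prim2 (1445474_at, 18.6 to 41.1 units) and Pole3 (1459816_x_at, 35.3 to 48.1 units) each had a dimmer probe set with a positive mean change. None of these passed limma. The second probe set of Timeless, 1417587_at, had 16.1 and 16.9 units with doxycycline against 92.3 and 89.4 units untreated, so on it the lines differed little (5.74-fold and 5.30-fold lower). With the mean of all probe sets in place of the brightest, 35 members were called lower by limma: Orc1 and Dscc1 were gained, and Dbf4, Cdc45, Pola2, Pole3, Pole4 and Rfc1 were lost.

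**Figure D4:**
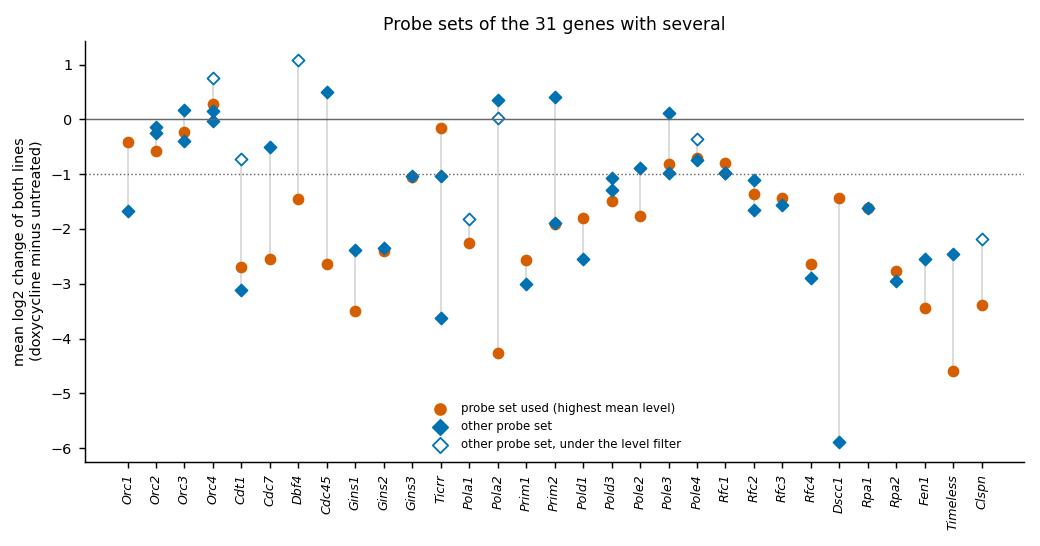
Mean log2 change of both lines (doxycycline minus untreated; vertical axis) for every probe set of the 31 genes with several, with orange circles for the probe set used, blue diamonds for the others and open diamonds for those under the level filter. The probe sets of Ticrr, Dscc1, Cdc45, Pola2 and Prim2 lie far apart, and those of Gins2, Gins3 and Rpa1 close together.

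Among 21 other genes of replication that were not members (such as Mcm10, Topbp1, Dtl and Exo1), 12 were lower by limma and 9 by more than 2-fold in both lines, 0 were higher by either, and the median mean change was -1.02. The lowest were Pclaf, a PCNA-binding factor, with 210 and 94.0 units in treated cells against 1746 and 1708 units in untreated cells, and Top2a, a topoisomerase of G2 and mitosis, with a mean log2 change of -3.52. The highest were Top1, the topoisomerase that relaxes DNA ahead of the fork, at 601 and 697 units with doxycycline against 557 and 603 units untreated, and Pold4, the smallest subunit of polymerase delta, with a mean log2 change of 0.08. Neither passed limma (adjusted p = 0.513 for Top1 and 0.810 for Pold4).

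The promoters of the members were read for what they share in sequence. RefSeq windows (GRCm38.p6) from 250 bases before to 50 bases after a transcript start were at hand for 37 of the 47 genes. The letters TTTCCCGC, TTTCGCGC, TTTGCCGC or TTTGGCGC, the core to which E2F factors, regulators of S phase genes, are known to bind, were searched on both strands, and none of these strings contains another motif searched. They occurred in 13 of the 37 genes (35.1%), in 3.81% of 14452 array genes with a window, and in 2.26% of all 32851 windows. They were present in 10 of 31 members called lower by limma and in 3 of 6 not called. These calls are those of the probe sets used. Orc1, which has the letters, and Ticrr, which does not, were not called but were lower by limma on another probe set. The matches lay before the start in 7 genes, whose stretches of 30 bases are shown 5′ to 3′ on the gene's strand because genes whose mean changes differed widely carry the same letters there. Capitals mark the match, which lies on the opposite strand in Orc1, Pole4, Gins3, Cdc6 and Pola1.
Orc3, chr4:34614965-34614994, minus strand: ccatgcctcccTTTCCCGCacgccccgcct
Orc1, chr4:108579416-108579445, plus strand: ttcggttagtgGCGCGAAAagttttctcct
Rfc3, chr5:151651209-151651238, minus strand: ccggaagtgacgtcgcacgcTTTCGCGCtc
Pole4, chr6:82652890-82652919, minus strand: ctctacccggcGCGGGAAAggggccgaaat
Gins3, chr8:95633507-95633536, plus strand: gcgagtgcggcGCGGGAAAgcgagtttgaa
Cdc6, chr11:98908002-98908031, plus strand: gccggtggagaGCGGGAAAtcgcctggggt
Pola1, chrX:93632275-93632304, minus strand: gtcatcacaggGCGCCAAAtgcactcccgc
The match of Rfc3 began 10 bases before the transcript start, those of Orc1, Pole4, Orc3 and Gins3 began 27 to 41 bases before it, and those of Cdc6 and Pola1 began 138 bases before it. Pole4, Gins3 and Cdc6 carry the same 8 letters, with mean log2 changes of -0.70, -1.06 and, with the low signal raised, -3.80. Orc3 carries these letters read on the other strand, with a mean log2 change of -0.23. In Clspn, Lig1, Pold1, Pold3, Cdt1 and Pole2 the letters were found only after the start.

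Other motifs were nearer to the shares of all genes. The letters CCAAT, bound by NF-Y, were in 51.4% of members with a window and 42.0% of array genes, and TTTGAA, the core of the cell cycle genes homology region, in 16.2% and 15.7%. TGGGAA, the core bound by RBPJ, the DNA-binding partner of ICN1, was in 43.2% of members and 27.5% of array genes, and CACGTG, the E-box bound by MYC, in 16.2% and 10.2%. These letters were counted on both strands, and such a match is a description of the sequence and not a site.

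**Figure D5:**
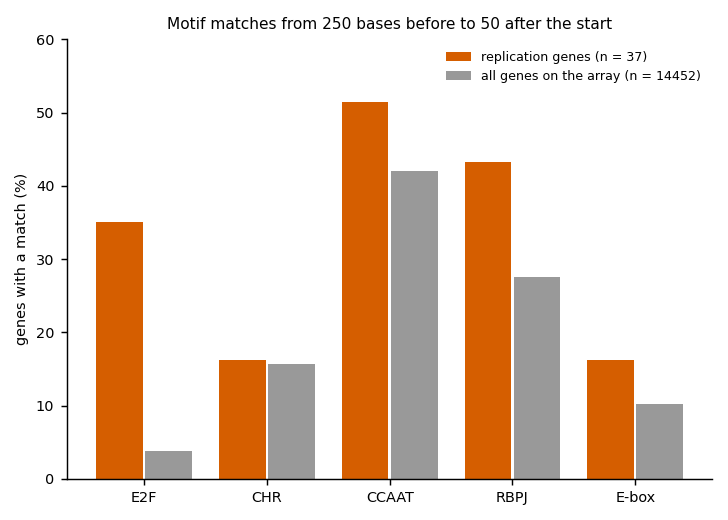
Share of genes (%; vertical axis) with a match on either strand in the window around a transcript start, for 5 motifs (horizontal axis), with orange bars for the 37 replication genes with a window and grey bars for 14452 genes on the array. The E2F letters stood at 35.1% of members and 3.81% of array genes, and the TTTGAA letters (CHR) at 16.2% and 15.7%.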

How the data were processed

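RNA of 2 tumor lines, with doxycycline or untreated, was measured on 4 arrays, 1 per line and condition. The authors ran MAS5 on the scans and deposited log2 signals. The base of the logarithm was read from trimmed mean signals of 97.7 to 101.8 units. Neither the software version nor the target of its scaling is stated in the sources used here. The paper's methods give an A-type array, whereas 45101 probe sets were deposited. Leaving out 64 controls, 34945 probe sets carried 1 symbol, 932 several and 9160 none, and only the first were named (18193 genes). The members and lists were chosen with earlier results of these data known.

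Changes were log2 differences within a line. limma 3.58.1 (R 4.3.3) was fitted with line and treatment, and eBayes with an intensity trend. The fit took 33778 probe sets with a mean log2 of at least 2.94, the 25th percentile, with Benjamini-Hochberg adjustment. It was also run on simulated data whose noise followed the mean level. Such data share the trend the fit assumes, so they cannot test how far the calls depend on it. The block left 1 residual degree of freedom and 6.18 prior ones. Line pairs the arrays, since both of a pair come from the same cells, and their deviations correlated (r = 0.36). The p values rest on a variance drawn mostly from the trend over all probe sets, and less from the spread between these lines. All members were named, with array values for the lowest and highest of each group, those not called and those differing between lines. Alternatives were level filters, a floor, a pseudocount, quantile normalization, median centring, other probe set choices, no trend, no block, other fold limits and leaving out a line or an array.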

Additional observations from a re-analysis of the deposited data

Results flagged for a closer look

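On the probe sets used, Ticrr was the only member whose change had opposite signs in the lines, with -0.36 in 8534 cells and 0.030 in 8542 cells. The lines thus differed by 0.39 on the log2 scale (8542 minus 8534). This difference was not tested, because 1 array per line and condition leaves no residual degrees of freedom. On probe set 1435497_at Ticrr was 12.0-fold lower in 8534 cells and 12.6-fold lower in 8542 cells, and on 1439723_at it was also lower in both. With 2 arrays per condition, no array could be examined as standing apart from its group.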

How the results depend on the processing

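Of the 47 members, 20 were lower by more than 4-fold in both lines, against 34 at 2-fold. limma called 39 members lower with the cell line as a block, 10 with no replicate block, and 0 without the intensity trend (lowest adjusted p 0.223). Without the block and with 1 array left out, between 0 and 17 were called: 17 without the doxycycline array of line 8534, and 0 without the doxycycline array of line 8542 or either untreated array. The blocked fit could not be run with an array left out, since no residual degrees of freedom remain. Filters, floor, pseudocount, quantile normalization, centring and the mean of probe sets left between 35 and 39 called. At the stricter filter 44 members were tested, and the calls of Pole and Chtf18, among the dimmest, were not made. The median change of all members was -1.60 over the mean of all probe sets and -1.43 with the probe set that changed least, against -1.76. For firing genes it was -1.86 with a pseudocount and -1.30 over the mean of probe sets, for polymerase and primase -1.32 and for the clamp group -2.38 over that mean, against -1.93, -1.80 and -1.74. With 1 line left out, the medians lay between -2.02 and -1.95 (firing), -2.14 and -1.69 (polymerase and primase) and -1.92 and -1.67 (clamp group). With 1 line left out, the change of Ticrr on the probe set used lay between -0.36 and 0.030, positive only without line 8534. Over the mean of its probe sets it was -1.60. The cause of these shifts was not tested. Signals under 5.52 units limit the size of the decreases of Pole, Chtf18, Pola2, Cdc6 and Timeless.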
